A study of Homo sapiens with 6 samples.

Results

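The numbered pseudogenes of keratin 8 (KRT8) and keratin 18 (KRT18) were examined in cells that the study names as HepG2, a cell line from a human liver tumour. They were taken as all rows of the count table whose gene symbol is KRT8P or KRT18P followed by digits only. This gave 112 of 40205 rows, 48 for KRT8 and 64 for KRT18. RNA-seq had been run on 3 control samples (Control-1 to Control-3), which were not exposed, and on 3 samples of the same cell line exposed for 24 h to cationic liposomes (CLs), positively charged lipid vesicles used to carry genes and drugs (CLs-1 to CLs-3). The sample labels give the dose as 120 µM, while the study's text gives the same figure in both µM and µg/ml. The study calls the samples independent, but whether those of a group came from separate cultures is not stated in the labels, so the p-values measure the spread between these samples, which may be technical.

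KRT8 and KRT18 are the type II and type I keratins of simple epithelia. They pair into the intermediate filaments that give liver and other glandular cells mechanical strength and stress resistance. A processed pseudogene is an intronless copy of an mRNA that was reverse transcribed and inserted elsewhere in the genome, usually without a promoter of its own. KRT8 and KRT18 have left many such copies. A read from the parent mRNA that falls where a copy is unchanged matches both places equally well, and how such reads were counted is not given in the sources used here. What part of a copy's count came from such reads cannot be told from these counts, and the values below are counts assigned to each symbol.

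The totals were between 11418527 and 13998946 counts per sample. Log2 fold changes, also written as log2 differences, are of the CLs-treated over the control group. Levels are given as CPM, the count rescaled by library total and TMM factor, and errors are SD over the 3 samples of a group. The defining markers of hepatocytes were absent or near 0. None of the 16 genes of a hepatocyte and HepG2 list, albumin (ALB) and transthyretin (TTR) among them, had enough reads to be tested. Their summed level was 0.434 to 2.16 CPM in the control samples, 12.5 CPM in CLs-1, 0.346 CPM in CLs-2 and 0.438 CPM in CLs-3. These levels are at odds with the HepG2 label, and the identity of the cells was not tested. KRT8 and KRT18, by contrast, were among the well expressed genes. So were another keratin, KRT7, at 2158 CPM and vimentin (VIM) at 981 CPM on average in the control samples. The epithelial genes CDH1 and EPCAM had at most 9 counts in any sample. CLs-1 also stood apart in a haemoglobin list, at 33 CPM against at most 0.347 CPM in the other 5 samples, and in a steroidogenic list, at 32.3 CPM against at most 2.76 CPM. What part this has in the results was not tested, and values without CLs-1 are given for the parents, for the copies described in full and for the counts of tested copies.

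The likeness of the copies to their parents can be seen in a stretch of KRT18 around an exon junction. Of the 112 pseudogenes, 110 had a sequence in the GENCODE 29 annotation of GRCh38, the exceptions being KRT8P16 and KRT18P30. The deposited counts carry no coordinates, and the build named with them is hg19 (GRCh37), so all positions here are those of GENCODE 29. Shown are 90 bases of the KRT18 mRNA, from 1114 to 1203, with the same stretch in the KRT18 copies whose values are given sample by sample. In the parent, capitals mark the 2 bases on either side of the junction of exons 5 and 6, which are separated by an intron in the gene. In the copies, capitals mark bases that differ from the parent. The stretch lies at chr12:52951812-52951856 and chr12:52952119-52952163 for KRT18 (plus strand), chr3:12787681-12787770 for KRT18P17 (minus strand), chr3:32259841-32259930 for KRT18P15 (plus strand), chr6:19613636-19613725 for KRT18P38 (plus strand) and chrX:92460562-92460651 for KRT18P11 (plus strand).
KRT18: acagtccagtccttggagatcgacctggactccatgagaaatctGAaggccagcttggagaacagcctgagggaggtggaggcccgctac
KRT18P17: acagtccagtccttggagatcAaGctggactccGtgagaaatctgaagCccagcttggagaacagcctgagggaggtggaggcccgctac
KRT18P15: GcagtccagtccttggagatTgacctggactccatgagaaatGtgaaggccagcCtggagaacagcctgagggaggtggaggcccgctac
KRT18P38: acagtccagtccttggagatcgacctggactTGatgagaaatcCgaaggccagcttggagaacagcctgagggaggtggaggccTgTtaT
KRT18P11: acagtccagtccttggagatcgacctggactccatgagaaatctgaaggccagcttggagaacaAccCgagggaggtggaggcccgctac
In each copy the sequence ran through the junction with no intron. KRT18P11 had 2 differences, KRT18P17 and KRT18P15 had 4 and KRT18P38 had 6. An RNA read that lies within an unchanged run of such a stretch carries no base by which it could be assigned to the parent or to the copy.

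Over the part that aligned, the 47 KRT8 copies with a sequence were 76.0% to 97.1% identical to the KRT8 mRNA, with a median of 89.5%. The 63 KRT18 copies were 78.2% to 95.2% identical to the KRT18 mRNA, with a median of 90.1%. The longest run shared without a difference had a median of 60 bases (22 to 133) for the KRT8 copies and 53 bases (29 to 97) for the KRT18 copies. At least 1 window of 50 bases was found unchanged in the parent for 31 KRT8 and 41 KRT18 copies. The share of a copy's windows that were unchanged had a median of 0.887% for KRT8 and 0.457% for KRT18. Of the 110, 103 were annotated as a single exon. KRT18P40, with 3 exons, and KRT18P55, with 4, were annotated as unprocessed, so not as copies of an mRNA. The copies were spread over all 24 chromosomes, counting X and Y. Only 3 of them, KRT8P29, KRT18P10 and KRT18P11, were more like another copy than like the parent, and KRT18P10 on the Y chromosome was 98.1% identical to KRT18P11 on the X chromosome.

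The reads on the pseudogenes were few beside those on the parents and lay on few copies. Over the 6 samples, 19616 counts were assigned to the KRT8 copies and 9256 to the KRT18 copies. KRT8P3, KRT8P33 and KRT8P36 took 71.1% of the counts of the KRT8 copies, and KRT8P3 alone took 33.4%. For the KRT18 copies, KRT18P17, KRT18P15 and KRT18P38 took 48.1%. Among copies with reads, the median of the mean count per sample was 10.7 for KRT8 and 8.17 for KRT18. A mean of at least 100 counts was reached by 11 copies and a mean of at least 10 counts by 50. A further 53 had fewer reads, and 9 (KRT8P6, KRT8P16, KRT8P18, KRT8P27, KRT8P38, KRT8P43, KRT8P44, KRT18P30 and KRT18P46) had none in any sample. For the copies at 0, a count of 0 allows up to 3 counts per sample, as far as counting error goes.

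The number of counts on a copy followed its likeness to the parent. The median count per kb was 0.0608 for the 6 KRT8 copies under 85% identity, 3 of which were at 0. It was 1.38 for 8 copies between 85% and 88% (2 at 0) and 7.02 for 18 copies between 88% and 91% (1 at 0). It was 16.6 for 11 copies between 91% and 93%. For the 4 copies at or above 93% it was 356, with values from 13 to 754. For KRT18 the medians in the same ranges were 0.815 (n = 6), 1.09 (n = 10), 5.83 (n = 23), 11.1 (n = 20) and 90.3 (n = 4). Spearman's rho between identity and mean count per kb was 0.766 across 47 KRT8 copies and 0.719 across 63 KRT18 copies, which share libraries, parent and counting and are not independent. With the longest shared run in place of identity it was 0.714 and 0.656. With the length of the copy it was -0.0834 and 0.163.

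**Figure D1:**
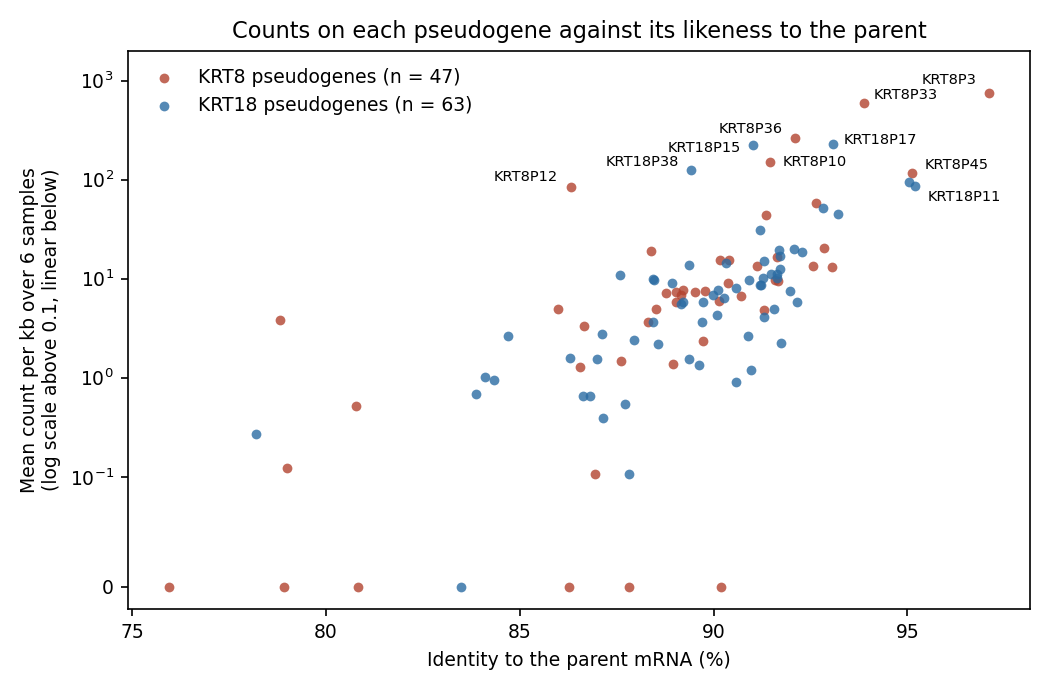
Mean count per kb over the 6 samples (vertical axis, logarithmic above 0.1 and linear below) against identity to the parent mRNA in percent (horizontal axis), with a point for each of 47 KRT8 (red) and 63 KRT18 (blue) pseudogenes. Counts climb with identity, from a median of 0.0608 per kb under 85% to 356 per kb at or above 93% for KRT8, and KRT8P12 lies far above other copies of its identity.

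KRT8P3 had 754 counts per kb and was 97.1% identical to KRT8, with 129 bases as its longest shared run. KRT8P33 had 597 counts per kb at 93.9% identity and 133 bases, the longest run of all copies. KRT8P12 departed from this order. KRT8P12 had 84.1 counts per kb at 86.3% identity, where the median of its range was 1.38. Of its 50-base windows, 0.297% were unchanged in KRT8. The median over the KRT8 copies was 0.887%, and KRT8P3 had 28.2%. KRT8P12 is 1 of 4 copies annotated as transcribed, with KRT18P18, KRT18P55 and KRT18P59. The others had 18.5, 6.90 and 0.948 counts per kb, in that order.

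Of the 110 copies, 49 lay within or over another annotated gene and 34 of these overlapped a protein-coding gene. KRT8P3 lies in an intron of ASPH on the opposite strand. KRT8P33 lies in an intron of CEP120, KRT8P36 in DZIP1L, KRT18P15 in CMTM8 and KRT18P11 in PCDH11X, each on the strand of that gene. KRT8P10, KRT8P45, KRT8P12 and KRT18P17 lie in no other gene. The median count per kb was 7.41 for the 22 KRT8 copies in introns and 5.48 for the 24 in no other gene, and it was 10.4 (n = 18) and 5.54 (n = 37) for the KRT18 copies. The host genes did not have the reads of the copies they hold in all cases. CMTM8 had a mean of 21.5 counts where KRT18P15 had 286, and PCDH11X had 0 counts where KRT18P11 had a mean of 109.5.

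The design asks what differed after exposure to CLs. Both parents were lower in the CLs-treated samples, and so were nearly all of their pseudogenes. In such bulk samples fewer cells of a kind and less RNA per cell cannot be told apart. KRT8 had 17452, 22249 and 26398 counts in the control samples, numbered 1 to 3, and 9809, 11542 and 9024 counts in the CLs-treated samples in the same order, which is kept in what follows. KRT18 had 19106, 22985 and 29346 counts in the control samples and 10628, 11142 and 11452 counts in the CLs-treated samples. In both, every CLs-treated sample lay below every control sample. The level of KRT8 was 1900 ± 375 CPM without and 822 ± 162 CPM with exposure (SD, n = 3). Its log2 difference between the groups was -1.21 (standard error 0.19), and edgeR's quasi-likelihood test gave an adjusted p of 0.0508. KRT18 stood at 2053 ± 433 and 901 ± 144 CPM (SD, n = 3), and the log2 difference was -1.19 (standard error 0.19) and the same adjusted p. Without CLs-1 the same test gave -1.09 for KRT8 (edgeR adjusted p = 0.187) and -1.06 for KRT18 (edgeR adjusted p = 0.171). Neither parent passed the threshold of 0.05 in this fit, and both passed in several of the alternatives listed at the end. Neither passed whichever sample was left out.

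Among the 103 pseudogenes with reads, 98 had a lower mean CPM after exposure and 5 a higher one, while 46.4% of all genes with a read were lower. Of the 5, KRT8P12 had 705 counts over the 6 samples, and KRT8P25, KRT18P5, KRT18P44 and KRT18P66 had 13, 38, 3 and 5. Among the 50 copies with a mean of at least 10 counts, 49 were lower, where 47.9% of all genes at that depth were. In 36 of these 50, all 3 CLs-treated samples lay below all 3 control samples, in 14 the groups overlapped, and in none did they lie above. Of all genes with a mean of at least 10 counts, 6.16% were separated downwards in this way and 5.3% upwards. The 53 copies with fewer reads together had 245, 270 and 360 counts in the control samples and 139, 151 and 140 counts in the CLs-treated samples. Their summed level was 25.2 ± 5.06 against 11.7 ± 1.80 CPM (SD, n = 3), and 49 of the 53 were lower.

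A filter that ignores the groups, at least 10 counts over the 6 samples, left 86 pseudogenes. Of these, 46 were lower at an unadjusted p under 0.05 in edgeR's quasi-likelihood test and none was higher, where 3.19% of all genes so tested were lower. The filter used in the rest of the text, edgeR's filterByExpr, takes a gene that reaches its minimum in 3 samples, so a copy can pass it through the control group alone. It kept 49 pseudogenes, 46 of them with a mean of at least 10 counts. At an adjusted p under 0.05 and a fold change under 0.67, 1 of the 49 was called, KRT18P17, where 0.0731% of all tested genes were called lower. With KRT18P17, 6 of the 49 had an adjusted p under 0.10 and were lower, as did 0.239% of all tested genes.

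KRT18P17 had 342, 404 and 499 counts in the control samples and 163, 174 and 191 in the CLs-treated samples. The groups lay well apart. KRT18P17 fell from 35.8 ± 6.59 to 14.4 ± 2.79 CPM (SD, n = 3). Its log2 difference between the groups was -1.32 (standard error 0.20), and edgeR's quasi-likelihood test gave it an adjusted p of 0.0440. The call was lost whichever sample was left out, with adjusted p-values of 0.0526 to 0.188 and log2 fold changes of -1.45 to -1.17. Without CLs-1 its log2 fold change was -1.17 and its adjusted p was 0.128.

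The KRT8 copies with the most reads were also lower, though none passed the test. KRT8P3 had 1181, 1578 and 1743 counts in the control samples and 598, 850 and 609 counts in the CLs-treated samples. Its level was 129 ± 24.2 against 56.1 ± 16.2 CPM (SD, n = 3), with a log2 difference of -1.21 (standard error 0.21, adjusted p = 0.0751). The highest treated sample, CLs-2, was below the lowest control. KRT8P33 had 930, 1175 and 1158 counts in the control samples and 677, 656 and 501 counts in the CLs-treated samples. Its log2 difference between the groups was -0.93 (standard error 0.15, adjusted p = 0.0541). Again no treated sample reached a control. KRT8P36, at 436, 520 and 518 against 316, 307 and 198 counts, had a log2 difference of -0.95 (standard error 0.18, adjusted p = 0.0968). The longest runs these 3 copies share with KRT8, at 129, 133 and 65 bases, were above the median of 60. These adjusted p-values, and those that follow, are from edgeR's quasi-likelihood test over all 15047 tested genes.

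KRT8P10 and KRT8P45, which lie in no other gene, had fewer reads. KRT8P10 had 259, 291 and 309 counts in the control samples and 192, 149 and 110 counts in the CLs-treated samples, a log2 difference of -1.05 (standard error 0.18, adjusted p = 0.0718). KRT8P45 had 211, 224 and 259 against 98, 121 and 94 counts, a log2 difference of -1.24 (standard error 0.20, adjusted p = 0.0562). In neither did the groups overlap. Without CLs-1 the log2 fold changes were -1.03 for KRT8P3, -0.90 for KRT8P33, -0.95 for KRT8P36, -1.13 for KRT8P10 and -1.09 for KRT8P45.

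Of the other KRT18 copies with a mean of at least 100 counts, KRT18P15 was the most variable. It had 493, 476 and 291 counts in the control samples and 91, 168 and 197 counts in the CLs-treated samples. Control-3 was low and CLs-1 was lower than the other 2 treated samples, but the groups did not overlap. Its log2 difference between the groups was -1.52 (standard error 0.32, adjusted p = 0.173), and without CLs-1 it was -1.19. KRT18P38 had 173, 227 and 235 counts against 103, 108 and 118 counts, a log2 difference of -1.03 (standard error 0.21, adjusted p = 0.129). KRT18P11 had 117, 161 and 181 against 46, 67 and 85 counts, a log2 difference of -1.28 (standard error 0.30, adjusted p = 0.217). KRT18P10, the copy closest to it in sequence, stood at 14.7 ± 4.07 against 6.12 ± 1.83 CPM (SD, n = 3), a log2 difference of -1.27 (standard error 0.28, adjusted p = 0.180). These 4 had values from -1.52 to -1.03, on both sides of KRT18 at -1.19, and none of them passed the test. Without CLs-1 they were -0.89 for KRT18P38, -0.995 for KRT18P11 and -1.04 for KRT18P10.

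KRT8P12 was the exception among the copies with many reads. It had 111, 100 and 104 counts in the control samples and 160, 122 and 108 in the CLs-treated samples. In CPM these were 9.64, 8.64 and 8.92 against 11.1, 10.5 and 9.46. The groups overlapped, and its log2 difference was 0.19 (standard error 0.18, adjusted p = 0.998). KRT8P12 stayed between 0.14 and 0.25 with any sample left out. Its neighbour KPNA4, an importin gene, had a log2 fold change of -0.10 (adjusted p = 0.998). For the hosts of the other copies, the log2 fold change was 0.54 for ASPH (adjusted p = 0.578), -0.07 for CEP120, -0.20 for DZIP1L and 0.22 for CMTM8.

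**Figure D2:**
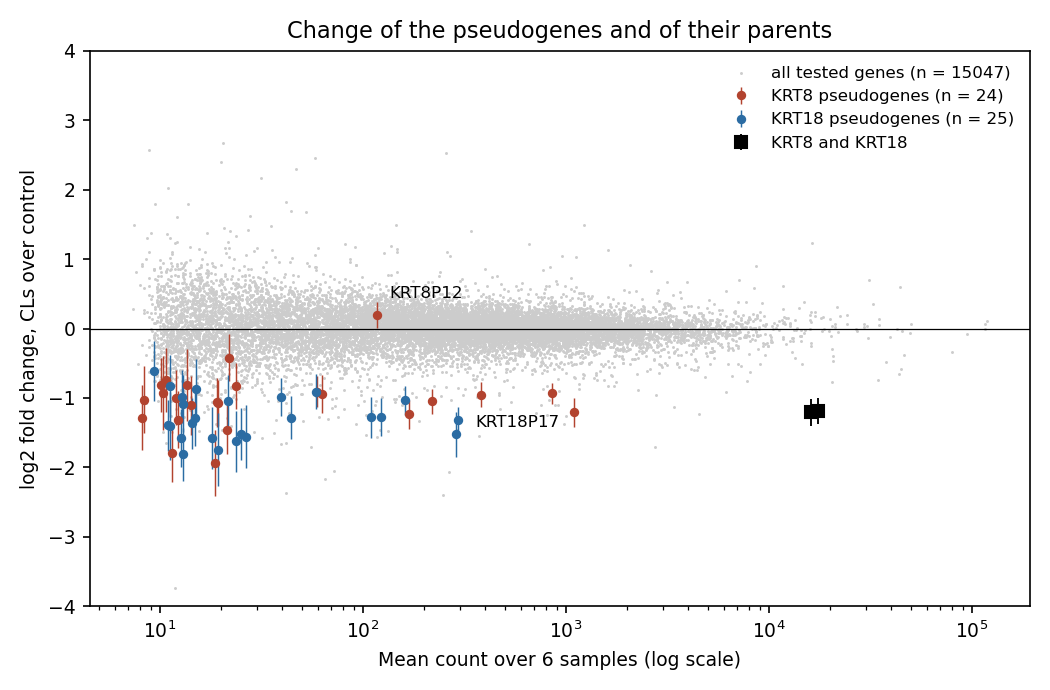
Log2 fold change of CLs-treated over control samples (vertical axis) against mean count over the 6 samples (horizontal axis, log scale) for 15047 tested genes (grey), 24 KRT8 (red) and 25 KRT18 (blue) pseudogenes with standard errors, and KRT8 and KRT18 (black squares). All pseudogenes but KRT8P12, at 0.19, lie below 0, and KRT8 and KRT18 lie at -1.21 and -1.19.

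Across the 46 copies with a mean of at least 10 counts that were tested, the median log2 fold change was -1.09, beside 0.01 for all tested genes. It was -0.97 for the 22 KRT8 copies and -1.31 for the 24 KRT18 copies. The lowest values were those of copies with few reads. KRT8P7 had 25, 32 and 31 counts in the control samples and 3, 14 and 7 counts in the CLs-treated samples, a log2 fold change of -1.93 (standard error 0.47). Besides KRT8P7 and KRT18P15, values from -1.81 to -1.52 were found for KRT18P23, KRT8P40, KRT18P25, KRT18P18, KRT18P61, KRT18P12, KRT18P1 and KRT18P4. Between -1.46 and -1.27 lay KRT8P47, KRT18P13, KRT18P32, KRT18P3, KRT8P30, KRT18P28 and KRT18P48, beside KRT18P17, KRT18P10 and KRT18P11. Of these 20 copies, 16 are copies of KRT18.

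KRT8P32, KRT18P22, KRT8P8, KRT8P37 and KRT18P65 lay between -1.24 and -1.03, with KRT8P45, KRT8P3, KRT8P10 and KRT18P38. From -0.99 to -0.81 there were 14 copies, which were KRT8P35, KRT18P29, KRT18P21, KRT8P49, KRT8P42, KRT18P16, KRT8P13, KRT18P33, KRT18P8, KRT8P11, KRT8P9 and KRT8P20, with KRT8P36 and KRT8P33. KRT8P49 lies in an intron of MMP26, which had 1 count in all, and it had 82, 77 and 85 counts against 34, 45 and 55. The 3 smallest differences were all in KRT8 copies, KRT8P19 at -0.74, KRT8P46 at -0.42 and KRT8P12 at 0.19, and in each of them the groups overlapped. With 1 sample left out, 4 of these copies with few reads moved by more than 1.5 times in fold, KRT8P42 to -1.67 and KRT8P7 to -2.65 without CLs-2, and KRT18P13 to -2.13 and KRT18P1 to -2.19 without CLs-3. The 3 tested copies with a mean below 10 counts were KRT8P22 at -1.29, KRT8P48 at -1.03 and KRT18P24 at -0.61. KRT8P31, KRT8P39, KRT18P42 and KRT18P55 had a mean of at least 10 counts but were not tested, and each was lower in mean CPM with overlapping groups. Without CLs-1, 60 copies were tested, 58 of them lower and 35 at an unadjusted p under 0.05, where 5.47% of all genes tested were lower at that p. Their median log2 fold change was then -1.001.

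The counts of a pseudogene relative to those of its parent in the same sample compare the 2 without any scaling between libraries. For most copies the groups overlapped in this share. KRT8P3 amounted to 6.77%, 7.09% and 6.60% of KRT8 in the control samples and to 6.10%, 7.36% and 6.75% in the CLs-treated samples. The groups overlapped, and the ratio of the CLs-treated to the control share was 0.985 (exact two-sided permutation test, p = 0.9). KRT8P36 amounted to 2.498%, 2.34% and 1.96% against 3.22%, 2.66% and 2.19%, a ratio of 1.18 (exact permutation p = 0.4). KRT8P45 amounted to 1.21%, 1.01% and 0.981% against 0.999%, 1.05% and 1.04%, a ratio of 0.970 (exact permutation p = 0.9). KRT18P38 amounted to 0.906%, 0.988% and 0.801% of KRT18 against 0.969%, 0.969% and 1.03%, a ratio of 1.11 (exact permutation p = 0.3). With 3 samples against 3 the exact permutation test cannot go below p = 0.1, and an overlap does not show that the shares were equal.

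Shares were compared for the 50 copies with a mean of at least 10 counts. For 43 of them the groups overlapped, for 4 the share was higher in every CLs-treated sample and for 3 it was lower. The ratio had a median of 1.07, from 0.492 to 2.64. The 4 higher ones were all among the 24 KRT8 copies, KRT8P12, KRT8P33, KRT8P46 and KRT8P20. The 3 lower ones were KRT8P40, KRT18P17 and KRT18P23. All 7 reached p = 0.1 in the exact permutation test, the smallest possible, which was 0.714 after adjustment over the 50. The background was of another kind, because KRT8 itself was lower: the counts relative to KRT8 were higher in all 3 CLs-treated samples for 89.8% of all other tested genes, and lower in all 3 for 0.0332%. Relative to KRT18 these were 90.6% and 0.0465%. Among the copies, 4 of 24 for KRT8 and 0 of 26 for KRT18 were higher, and 1 of 24 and 2 of 26 were lower. The percentages over all genes follow from the lower counts of the parents and include genes with far more reads. No conclusion about the copies is drawn from them.

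KRT8P12 had the largest shift in share. It amounted to 0.636%, 0.450% and 0.394% of KRT8 in the control samples and 1.63%, 1.06% and 1.20% in the CLs-treated samples. The lowest treated share, 1.06% in CLs-2, had a Clopper-Pearson 95% interval of 0.879% to 1.26%, and the highest control share, 0.636% in Control-1, one of 0.524% to 0.765%. The intervals cover counting error only. The share of KRT8P12 went from 0.493% ± 0.127 to 1.30% ± 0.299 (SD, n = 3), a ratio of 2.64, while its CPM overlapped between the groups. KRT8P33 amounted to 5.33%, 5.28% and 4.39% against 6.90%, 5.68% and 5.55%, a ratio of 1.21 with no overlap. KRT8P46 had a ratio of 1.69 on 131 counts in all and KRT8P20 one of 1.32 on 61 counts.

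KRT18P17, the copy called in the fit, was slightly lower than KRT18 in relative terms. It amounted to 1.79%, 1.76% and 1.70% of KRT18 in the control samples and 1.53%, 1.56% and 1.67% in the CLs-treated samples, a ratio of 0.907 with no overlap (exact permutation p = 0.1). Among the 11 copies with a mean of at least 100 counts, KRT18P15 varied most between samples of 1 group, relative to the mean of its share. Its share was 2.58%, 2.07% and 0.992% in the control samples and 0.856%, 1.51% and 1.72% in the CLs-treated samples, and the Clopper-Pearson 95% intervals of Control-1 (2.36% to 2.82%) and Control-3 (0.881% to 1.11%) did not meet. Its ratio was 0.748 (exact permutation p = 0.5). KRT18P11 amounted to 0.612%, 0.701% and 0.617% against 0.433%, 0.601% and 0.742%, so that the CLs-treated samples lay on both sides of the control samples.

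**Figure D3:**
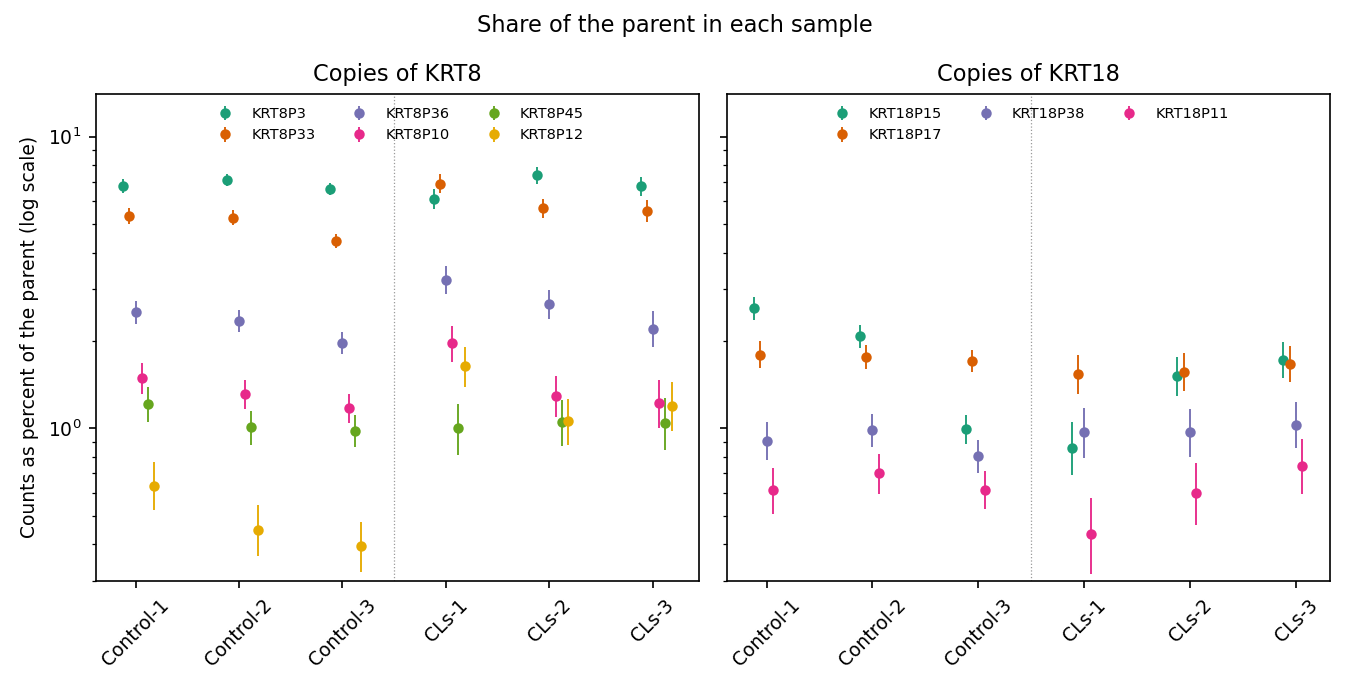
Counts of 6 KRT8 pseudogenes (left) and 4 KRT18 pseudogenes (right) as percent of the parent in each of the 6 samples, on a log scale, with Clopper-Pearson 95% intervals as bars. KRT8P3 stays between 6.10% and 7.36% in all samples, KRT8P12 is at most 0.636% in the control samples and at least 1.06% in the CLs-treated samples, and KRT18P15 runs from 0.856% to 2.58%.

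Summed over all copies, the KRT8 pseudogenes amounted to 20.7%, 20.2% and 17.9% of KRT8 in the control samples and 23.7%, 22.02% and 21.3% in the CLs-treated samples. The groups did not overlap, with means of 19.6% ± 1.52 and 22.3% ± 1.24 (SD, n = 3) and a ratio of 1.14. Without KRT8P12 the ratio was 1.10 and the groups overlapped. The KRT18 pseudogenes amounted to 10.0%, 9.25% and 8.25% of KRT18 against 7.56%, 8.42% and 9.22%, with overlap and a ratio of 0.916. In CPM, the summed KRT8 copies stood at 369 ± 48.3 against 183 ± 32.1 and the summed KRT18 copies at 186 ± 20.9 against 76.4 ± 18.9 (SD, n = 3). When the counts of the copies were added to the parents, the log2 fold change was -1.18 for KRT8 (adjusted p = 0.0584) and -1.20 for KRT18 (adjusted p = 0.0544) in edgeR's quasi-likelihood test.

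The same comparison was made in other gene families with numbered pseudogenes. These were taken by symbol, and whether each is a processed copy was not checked. Of 46 families listed, 39 had a mean of at least 10 counts on their copies. In these the copies amounted to between 0.351% and 321% of the parent, with a median of 28.9%, so that the KRT8 copies at 20.3% and the KRT18 copies at 8.84% were not high. The 61 copies of GAPDH, a glycolytic enzyme, amounted to 6.78% of it, those of the chaperone HSPA8 to 3.96% and those of the elongation factor EEF1A1 to 190%. The parents of the 39 families had log2 fold changes in CPM of -0.75 to 0.60, and 35 lay within 0.5 of 0. The lowest was that of KRT17, another type I keratin, at -0.75 with its 3 copies at -0.63. For ACTB, the cytoplasmic beta-actin, the values were -0.65 and -0.41, and for KRT19 the copies had too few reads.

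The log2 fold change of the summed copies minus that of the parent was between -0.23 and 0.26 in the 39 families, with a median of 0.02. It was 0.20 for KRT8 and -0.09 for KRT18, both within that range. EEF1G, at 0.26, and HMGN2, at -0.23, differed most from their copies. The share of the parent was higher in all CLs-treated samples in 3 of the 39 families (ACTG1, ANXA2 and EEF1G), lower in none and overlapping in 36. KRT8 and KRT18 had lower log2 fold changes than any of the 39 other parents, and so had their summed copies. The difference between parent and copies lay within the range of the other families. Because 35 of those parents lay within 0.5 of 0, that range says little about copies of a parent as low as KRT8 or KRT18. For the parents beyond 0.5 the difference was 0.24 (ACTB), 0.19 (ACTG1), 0.12 (KRT17) and 0.01 (FTL). No test was made of these families.

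**Figure D4:**
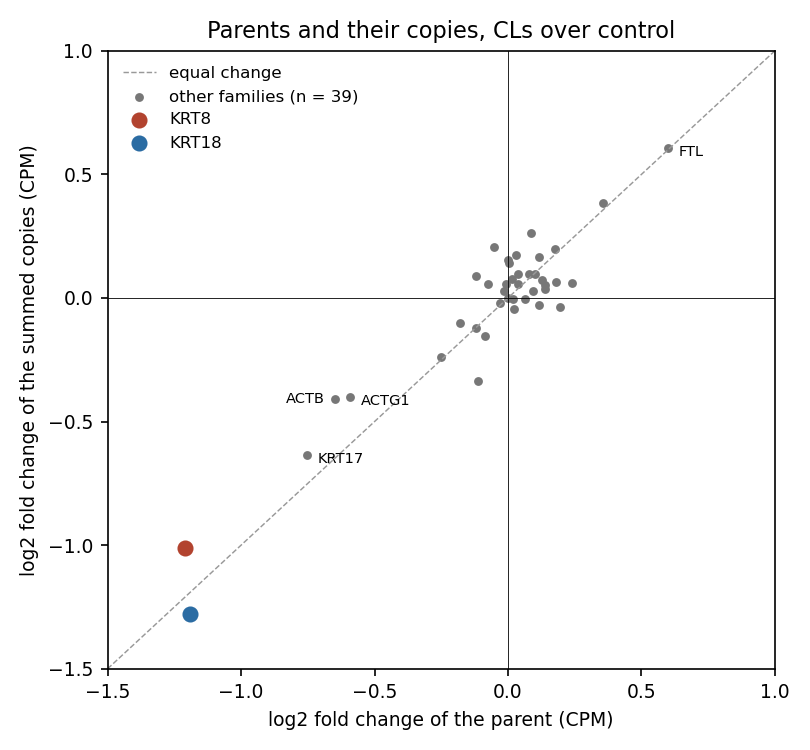
Log2 fold change in CPM (CLs-treated over control) of the summed pseudogenes (vertical axis) against that of the parent (horizontal axis) for KRT8 (red), KRT18 (blue) and 39 other families (grey), with the line of equal change dashed. KRT8 (-1.21 and -1.01) and KRT18 (-1.19 and -1.28) lie near the line and farthest from 0.

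A list of 17 genes held keratins, proteins that anchor keratin filaments, and VIM, another filament protein. Of these, 13 were tested, 7 were lower at an unadjusted p under 0.05, none was higher and none was called. Of all tested genes, 3.62% were lower at that p. The median log2 fold change was -0.44. Besides KRT8 and KRT18, the 7 were KRT7, the type II partner keratin of ducts, at -0.76 (adjusted p = 0.309), KRT80 at -0.66 (adjusted p = 0.327), the desmosomal plakophilin PKP2 at -0.92 (adjusted p = 0.0751), the plakin PPL at -0.64 (adjusted p = 0.4999) and EPPK1 at -0.44 (adjusted p = 0.637), all from edgeR's quasi-likelihood test. In fold terms none of these was as low as KRT8, KRT18 or the median of their tested copies.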

How the data were processed

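RNA-seq of cells named as HepG2 was run on the Ion Proton as single reads from total RNA, in 3 control and 3 CLs-treated samples. The authors mapped filtered reads with MapSplice and deposited counts, whole numbers of reads per gene symbol without normalization. The submitters' processing notes name HTSeq 0.6.1 and hg19 (GRCh37). Counting settings, strand and the handling of multiply matching reads are not given in the sources used here.

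Counts were compared with edgeR 4.0.16 in R 4.3.3 (quasi-likelihood test, TMM, filterByExpr, 15047 genes tested, Benjamini-Hochberg adjustment), on condition alone. The authors' EBSeq was not installed. The script was tested on simulated data. Standard errors come from the F statistic. Shares were compared by exact permutation tests (scipy 1.17.1). GENCODE 29 transcripts were aligned locally to the parent mRNA, of 1882 bases (KRT8) and 1562 bases (KRT18), with Biopython 1.88 (match 2, mismatch -3, gap opening -5, extension -2), and identity is over the aligned part.

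Alternatives were DESeq2 1.42.0, other scalings and filters, no fold criterion, a replicate block, other denominators and each sample left out. Named are KRT8, KRT18 and copies with a mean of at least 10 counts or tested, with other families and keratins from fixed lists. The members and lists were chosen with earlier results of these data known. Sequence measures beyond identity and sums without single copies were added after the counts were seen. Sequences of the KRT8 family are not reported here.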

Additional observations from a re-analysis of the deposited data

How the results depend on the processing

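The number of genes called was 13 of 15047 in the reported test (2 up, 11 down). It was 104 of 25432 with DESeq2 (15 up, 89 down). Without a filter on low counts it was 171 of 25432 (58 up, 113 down), and with library size as the only scaling 8 of 15047. It was 18 with RLE scaling, and 3 to 7 with 1 sample left out. Of the pseudogenes, 1 of 49 was called, against 10 of 103 with DESeq2 and 16 of 103 without a filter. It was 0 of 49 with library size only and 0 whichever sample was left out. With library size only, 39 of 49 tested pseudogenes were lower at an unadjusted p under 0.05, beside 3.12% of all genes. With a sample left out, 35 to 45 were, of 51 to 60 tested, beside 2.64% to 5.47% of all genes. These fits used filterByExpr, which a copy can pass through the control group alone. KRT18P17 was lost with library size only, at an adjusted p of 0.0583 in edgeR's quasi-likelihood test. KRT8 and KRT18 passed with RLE scaling (adjusted p = 0.0471 for both) and in DESeq2. In edgeR's quasi-likelihood test they did not pass with library size only (adjusted p = 0.0641 for both). Nor did they pass whichever sample was left out, with adjusted p-values of 0.0526 to 0.215 for KRT8 and 0.0526 to 0.192 for KRT18. For 51 genes with 614 alternatives, no log2 fold change reversed, 42 moved past the threshold and 7 lost it, all 7 in KRT18P17. The cause was not tested.

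Samples of the 2 groups share replicate numbers. The correlations of their deviations from the group means were 0.0998, 0.122 and 0.333 for numbers 1, 2 and 3. Between unlike numbers they ran from -0.24 to 0.085, all below these. The labels do not say whether the numbers mark pairs, and the reported test used condition alone. With the replicate number as a block, 68 of 15047 genes were called (12 up, 56 down), and 9 of 49 pseudogenes. KRT8 and KRT18 then passed too, at adjusted p-values of 0.0061 and 0.0046 in edgeR's quasi-likelihood test.

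The summed KRT8 copies had a log2 ratio of shares of 0.19. It was 0.31 without the 3 copies with most reads and 0.12 to 0.23 with a sample left out. For the KRT18 copies it was -0.13, and -0.20 to -0.05 with a sample left out. Of the 103 copies with reads, 53 had a mean under 10 counts per sample, and 3 of these were tested in the reported fit.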
